A study of Mus musculus with 12 samples.

Results

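The RGS (regulator of G protein signaling) genes were followed in mouse follicular B cells that were either taken straight from the spleen or cultured for 4 h, with and without the receptor GPR174. The members were chosen by name: Rgs1, Rgs2, Rgs3, Rgs10, Rgs14, Rgs18 and Rgs19, which are 7 of the 13574 genes listed in the 0 h or the 4 h count table. All 7 were listed in both tables. WT cells came from Gpr174+/Y males and GPR174-deficient (KO) cells from Gpr174-/Y males, which carry in their germline a tdTomato reporter in place of the single coding exon, so every cell type of the KO animals lacked the receptor during development too. In both genotypes CD21/35- CD23+ follicular cells were sorted from the spleen and sequenced at once (0 h) or after 4 h in complete medium with serum and no added stimulus. There were 3 libraries in each of the 4 groups, named here by genotype and time.

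Heterotrimeric G proteins carry signals from cell surface receptors while their alpha subunit holds GTP. RGS proteins bind active alpha subunits, mainly those of the Gi and Gq classes, and speed up their hydrolysis of GTP, which shortens the signal. In B cells this sets how long cells respond to chemokines and other ligands that guide them through lymphoid organs, and GPR174 is a receptor for lysophosphatidylserine that works through the stimulatory alpha subunit, cyclic AMP and protein kinase A.

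The libraries held 6098941 to 11618787 counts. Levels are given as CPM, the counts per 1000000 counts of the library after TMM scaling across the 12 libraries. Gpr174 was 149 to 157 CPM in WT 0 h and 73.4 to 76.7 CPM in KO 0 h, and 152.5 to 169 CPM in WT 4 h against 105 to 118 CPM in KO 4 h. The order matched the labels, and the tables give 1 value per gene, so they do not show where in the gene the KO reads lie. The 8 B cell markers were all listed and summed to 8897 to 9819 CPM at 0 h, 5921 to 6140 CPM in WT 4 h and 7385 to 7620 CPM in KO 4 h. The sums were 3.95 to 16.8 CPM for 8 listed T cell markers, 3.69 to 14.1 CPM for 7 NK cell markers, 20.8 to 134 CPM for neutrophil markers, 16.4 to 24.9 CPM for dendritic cell markers and 40.4 to 125 CPM for erythroid markers, with ranges that overlapped between the genotypes at each time. Other lists moved with the groups. The macrophage and monocyte sum was 68.5 to 85.3 CPM at 0 h and 25.8 to 46.8 CPM at 4 h, where 10 and 6 of its 11 genes were listed. The platelet sum was 268 to 344.5 CPM in WT 4 h against 66.1 to 110 CPM in the other groups, with 10 of its 12 genes listed at 0 h and 8 at 4 h. Nearly all of the WT 4 h sum was the integrin gene Itgb3 at 258 to 338 CPM, while Pf4 was at 0 to 0.888 CPM at 0 h and below the row cutoff at 4 h. The plasma cell sum was 519 to 570 CPM in WT 4 h and 442 to 478 CPM in KO 4 h, while the 0 h libraries had 432.5 to 495 CPM. Most of it was Irf4, at 409 to 474 CPM in WT 4 h. In both genotypes Sdc1 was higher and Xbp1 lower at 4 h than at 0 h. The germinal centre sum, which includes Rgs13, was 240 to 347 CPM at 0 h, 141 to 168 CPM in WT 4 h and 233 to 259 CPM in KO 4 h. Most of it was Bcl6, at 203 to 241 CPM at 0 h, 120 to 130 CPM in WT 4 h and 182 to 208 CPM in KO 4 h. The marginal zone sum was 1184 to 1396 CPM at 0 h and lower after culture, with 375 to 386 CPM in WT 4 h and 525 to 565.5 CPM in KO 4 h. Most of the fall was in Cr2, which is also on the B cell list. Cr2 was 872 to 1121 CPM at 0 h, 129 to 180 CPM in WT 4 h and 275 to 319 CPM in KO 4 h. Cd1d1, Dtx1, Myof and S1pr3 were lower at 4 h too, while Cd9 was higher in both genotypes and Plac8 was higher in KO. Their part in the values below was not tested, and in bulk RNA fewer cells of a type and less RNA per cell cannot be told apart.

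The first question was which RGS genes these cells express. Per kilobase of transcript, Rgs19 was highest in every group, with 104 ± 2.19 CPM per kb (SD, n = 3) in fresh WT cells and 101 ± 3.72 in fresh KO cells. After culture its level was 79.2 ± 2.56 CPM per kb in WT and 83.8 ± 3.45 in KO. Rgs14 came next at 0 h, with 29.3 ± 3.35 CPM per kb in WT and 26.7 ± 0.49 in KO. Rgs2 followed it at 0 h, with 19.5 ± 7.12 CPM per kb in WT, where its libraries overlapped those of Rgs14, and 12.2 ± 4.63 in KO, where they did not. In WT 4 h the order of this pair was turned, with Rgs2 at 30.3 ± 3.70 CPM per kb and Rgs14 at 11.3 ± 1.46, and their libraries were apart. In KO 4 h Rgs14 at 14.1 ± 0.94 and Rgs2 at 11.4 ± 1.65 CPM per kb overlapped. Rgs10 and Rgs3 followed, from 1.90 to 5.17 and from 1.79 to 3.57 CPM per kb over the group means, and they overlapped each other in all 4 groups. Rgs18 and Rgs1 were lowest, with Rgs18 above Rgs1 at 0 h and Rgs1 above Rgs18 at 4 h. In WT 0 h the libraries of Rgs18 also overlapped those of Rgs3 and Rgs10: in replicate 1 Rgs18 was at 3.66 CPM per kb, Rgs3 at 2.72 and Rgs10 at 1.92. At 0 h the libraries of Rgs18 and Rgs1 overlapped in WT and were apart in KO, and at 4 h they were apart in both genotypes.

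**Figure D1:**
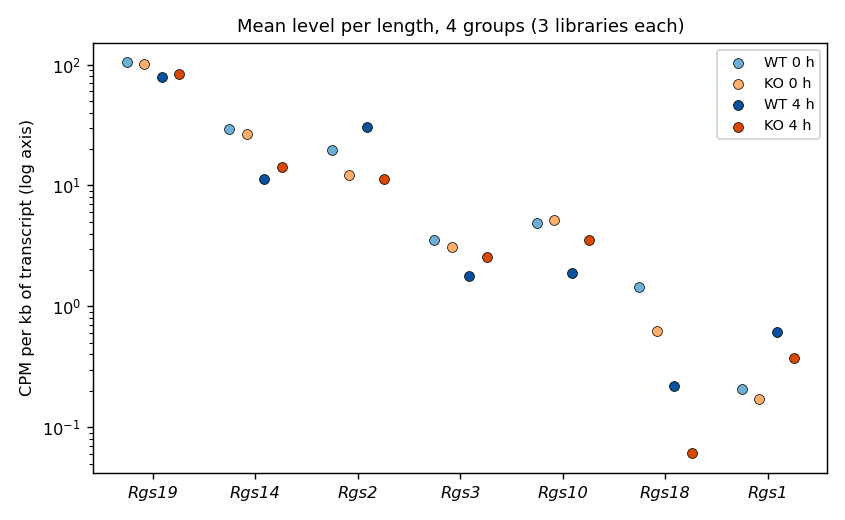
Mean level of each RGS gene in CPM per kilobase of its longest principal transcript, on a log axis, for the 4 groups of 3 libraries each. Rgs19 sits highest in every group, and the WT 4 h point of Rgs2 lies above that of Rgs14 while the other 3 groups have the reverse order.

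Rgs2 is a member of the R4 subfamily, short RGS proteins with little beyond the RGS domain, and acts mainly on alpha subunits of the Gq class. The gene lies on chromosome 1 (GRCm38 chr1:143999338-144004161, minus strand), 238.1 kb from Rgs1 and 748.5 kb from Rgs18. Its promoter is shown because cyclic AMP acts on transcription through CREB, which binds the palindrome TGACGTCA and its shorter form TGACG, which reads CGTCA when it lies on the other strand. Both strands were searched for both motifs. The RefSeq table (GRCm38.p6) gave promoters for Rgs2, Rgs3, Rgs10 and Rgs19, with 7 start sites among them. The 250 bases before the start of Rgs2 (chr1:144004150-144004399, minus strand) follow with the short motif in capitals, and the window of the same length for the most upstream start of Rgs19 (chr2:181693978-181694227, minus strand), the most abundant member, is set beside it.
Rgs2: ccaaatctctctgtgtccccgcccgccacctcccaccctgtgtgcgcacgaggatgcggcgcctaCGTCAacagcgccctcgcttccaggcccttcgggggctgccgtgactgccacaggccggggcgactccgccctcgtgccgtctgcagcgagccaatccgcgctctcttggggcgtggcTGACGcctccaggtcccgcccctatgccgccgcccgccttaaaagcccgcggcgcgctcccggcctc
Rgs19: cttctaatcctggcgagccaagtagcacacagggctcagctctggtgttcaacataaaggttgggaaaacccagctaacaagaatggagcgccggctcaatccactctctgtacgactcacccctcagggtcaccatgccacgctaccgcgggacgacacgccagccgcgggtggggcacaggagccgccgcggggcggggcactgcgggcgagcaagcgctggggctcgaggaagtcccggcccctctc
The Rgs2 window held 2 copies of the short motif, 185 to 181 and 67 to 63 bases before the start and on opposite strands, and no full palindrome. The windows of Rgs3, Rgs10 and Rgs19 held neither. Of 32851 mouse promoters of this length, 17.8% held the short motif at least once, 3.90% held it 2 or more times and 1.55% held the palindrome, which itself contains the short motif on both strands. A match of letters is a description and not a site of binding.

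Rgs2 was higher in WT than in KO cells after culture. The 3 WT 4 h libraries had 104, 81.7 and 88.9 CPM, and in KO 4 h they had 30.9, 32.0 and 40.1 CPM. Every WT library lay at more than the level of every KO library, with a gap from 40.1 to 81.7 CPM. The difference was 1.41 ± 0.11 (log2, SE), or 2.66-fold, and passed the test (edgeR quasi-likelihood, Benjamini-Hochberg adjusted p = 2.96e-07). It passed under all 13 alternatives, and leaving out 1 library at a time gave 1.31 to 1.54.

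Before culture the genotypes overlapped. In WT 0 h the Rgs2 libraries had 83.5, 48.2 and 44.6 CPM, and in KO 0 h they had 34.0, 24.4 and 52.0 CPM. KO replicate 3 lay above 2 of the 3 WT libraries. The fitted difference was 0.66 ± 0.23 (log2) and did not pass (edgeR adjusted p = 0.213), with adjusted p from 0.0771 to 0.661 over the alternatives. It was 0.32 without WT 0 h replicate 1 and 0.98 without KO 0 h replicate 3, the lowest and the highest value over the left-out libraries.

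Over the 4 h of culture Rgs2 rose by 0.64 ± 0.20 on the log2 scale in WT cells (1.56-fold, edgeR adjusted p = 0.0156), from a mean of 58.8 ± 21.5 to 91.4 ± 11.2 CPM (SD, n = 3). The first WT 0 h library, at 83.5 CPM, lay above the lowest WT 4 h library. In KO cells the mean was 36.8 ± 13.99 CPM at 0 h and 34.3 ± 4.99 CPM at 4 h, with a fitted change of -0.11 ± 0.23 (edgeR adjusted p = 0.792) that became 0.22 without KO 0 h replicate 3. The direct test of whether the culture change differed between genotypes gave 0.75 ± 0.30 (log2, WT minus KO, interval of 2 SE from 0.15 to 1.35) and did not pass (edgeR adjusted p = 0.178). Leaving out 1 library at a time gave 0.42 to 1.09, with adjusted p from 0.00847 to 0.527, and the one fit that passed was that without WT 0 h replicate 1. With all libraries and the replicate number as a block it was 0.75 ± 0.18 and passed (edgeR adjusted p = 0.00907). The labels do not say whether libraries of the same number come from the same mouse. The design text states 3 mice per genotype. If that number covers both times, each mouse gave a 0 h and a 4 h library, and the block is the closer fit to the design. The WT culture call itself was lost with DESeq2 (adjusted p = 0.134) and without WT 0 h replicate 2 or 3 or WT 4 h replicate 1 (edgeR adjusted p = 0.0821, 0.0992 and 0.0604).

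**Figure D2:**
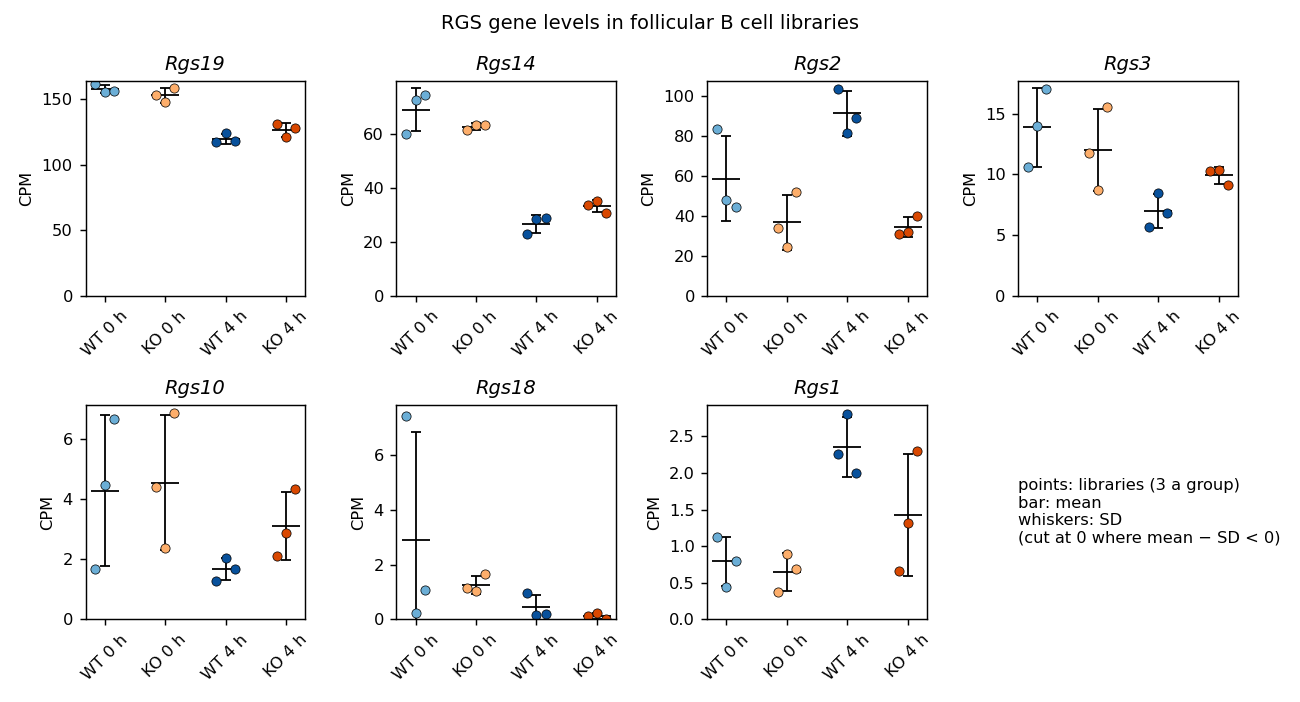
Level of each RGS gene in CPM (linear axes from 0) in the 3 libraries of each group, with the group mean as a bar and the SD as whiskers. The WT 4 h libraries of Rgs2 (81.7 to 104 CPM) sit above all KO 4 h libraries (30.9 to 40.1 CPM), and Rgs14 and Rgs19 sit lower at 4 h than at 0 h in both genotypes.

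Over the members as a whole, none differed between WT and KO past the threshold at 0 h. Of the 7 members 5 had enough counts to be tested there, and edgeR called 0 of them, with 1 (Rgs2) at an unadjusted p under 0.05 and 0 called by DESeq2. Of all genes tested 0.987% were called at 0 h. At 4 h, 6 members were tested and Rgs2 was the 1 called, where 10.9% of all genes were called. WT and KO libraries at 4 h were apart for Rgs2, Rgs3, Rgs10 and Rgs14 and overlapped for Rgs1, Rgs18 and Rgs19. The share of all genes whose groups were apart was not computed for any comparison. With 3 libraries a group, such separation is a description. The median difference of the members tested (log2, WT over KO) was 0.13 at 0 h and -0.19 at 4 h, while the median over all genes was 0.00 at both times.

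Culture was accompanied by more calls. In WT cells all 6 tested members were called, 2 higher (Rgs1 and Rgs2) and 4 lower (Rgs3, Rgs10, Rgs14 and Rgs19) at 4 h, against 33.1% of all genes tested. Rgs1 had too few counts to be tested at 0 h and entered this fit through its 4 h libraries. Its call as higher, and with it the 6 of 6, depends on that filter. In KO cells 2 of the 6 were called, both lower (Rgs14 and Rgs19), against 23.3% of all genes. The median culture change of the members was -0.70 (log2) in WT and -0.28 in KO, with 0.00 over all genes in both. The number of called members in WT ran from 4 to 7 when 1 library was left out, the higher end including Rgs18, which was not tested otherwise. In the test of the difference between these changes, edgeR called 0 of 6 members, with 3 (Rgs2, Rgs3 and Rgs14) at an unadjusted p under 0.05 and 0 called by DESeq2, against 6.39% of all genes. With the replicate number as a block, Rgs2 and Rgs14 passed, where 331 of all genes were called higher and 511 lower. Each genotype's change is measured with its own libraries, but the difference at 4 h and the culture changes share the 4 h libraries.

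**Figure D3:**
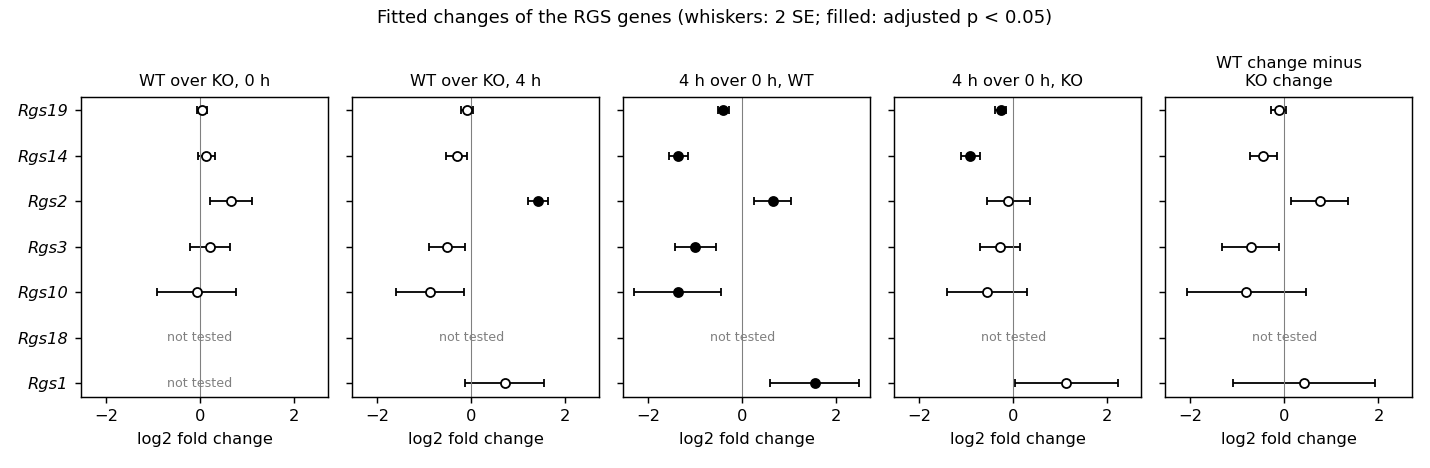
Fitted log2 fold changes of the RGS genes in the 5 comparisons, with whiskers of 2 SE, and filled points where the adjusted p of edgeR is under 0.05. Rgs2 is the single filled point for WT over KO at 4 h (1.41), 6 points are filled for culture in WT and 2 for culture in KO (Rgs14 and Rgs19), and none is filled for the other comparisons.

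Rgs1, another R4 protein, is known to dampen the response of B cells to chemokines and to rise when B cells are activated. Its gene is at chr1:144242296-144249242 (minus strand). It was rare in these cells: the WT 0 h libraries had 10, 4 and 9 reads and the KO 0 h libraries 3, 6 and 5. After culture there were 14, 18 and 19 reads in WT 4 h, and 5, 11 and 17 in KO 4 h. These are 2.00 to 2.81 CPM in WT 4 h, above the 0.448 to 1.13 CPM of every WT 0 h library, while in KO the 0.658 to 2.31 CPM at 4 h overlapped the 0.379 to 0.888 CPM at 0 h. The culture change was 1.54 ± 0.47 (log2) in WT (2.91-fold, edgeR adjusted p = 0.0153) and 1.13 ± 0.55 in KO (edgeR adjusted p = 0.151). Rgs1 had too few counts to be tested at 0 h and passed the filter of this fit through its 4 h libraries, where it was higher. The WT call was lost without the second WT 0 h or the second WT 4 h library (edgeR adjusted p = 0.0607 and 0.0578). The difference between these changes was 0.41 with an interval of 2 SE from -1.09 to 1.92, so at these counts its sign was not settled. At 4 h the genotypes overlapped, with a fitted difference of 0.71 ± 0.42 (edgeR adjusted p = 0.34).

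Rgs3, which acts on alpha subunits of the Gi and Gq classes, lies on chromosome 4 (chr4:62559847-62704001, plus strand). The WT libraries had 10.6, 14 and 17.05 CPM at 0 h and 5.64, 8.44 and 6.85 CPM at 4 h. All 3 cultured WT libraries were below all fresh ones, and the fall was by 0.998 ± 0.217 on the log2 scale (2.00-fold, edgeR adjusted p = 0.00115). The KO libraries had 11.7, 8.73 and 15.5 CPM at 0 h and 10.3, 10.4 and 9.10 CPM at 4 h. There the times overlapped, with a change of -0.28 ± 0.21 (edgeR adjusted p = 0.389). At 4 h every WT library lay below every KO library. The difference of -0.51 ± 0.19 did not pass (edgeR adjusted p = 0.116), nor did the difference between the culture changes of -0.72 ± 0.31 (edgeR adjusted p = 0.207).

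Rgs18, the R4 protein best known from platelets and their precursors, had too few reads for the test in any comparison (chr1:144752683-144775435, minus strand). The WT 0 h libraries had 66, 2 and 12 reads, so most of the reads of this group came from the first library, and the KO 0 h libraries had 9, 7 and 12. After culture the reads were 6, 1 and 2 in WT and 1, 2 and 0 in KO, where a count of 0 allows up to 3 reads by counting error alone. Without the filter the WT culture change was -2.74 ± 0.89 (log2, edgeR adjusted p = 0.0239). DESeq2 called 5 of the 7 members for WT culture, and Rgs18 was not among them. Each KO 4 h library was below each KO 0 h library, at 0 to 0.239 CPM against 1.04 to 1.65 CPM, while the WT groups overlapped. In the first WT 0 h library, where Rgs18 was 7.43 CPM, the listed platelet genes went both ways. Gp5 at 1.24, Itga2b at 2.48 and Nrgn at 1.46 CPM were the highest of the 0 h libraries. Ppbp at 0.788 and F2rl2 at 0.225 CPM were the lowest, and Pf4 at 0.338 CPM was inside the range of the others. The platelet sum of 83.5 CPM was inside that range too, but 70.8 CPM of it was Itgb3. The macrophage and monocyte sum of that library, 85.3 CPM, was the highest of the 0 h libraries. The part of these cell types in the Rgs18 reads was not tested.

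The same library stood at the edge of the WT 0 h group for other members. It had the highest Rgs2 (83.5 CPM) of that group and the lowest Rgs3 (10.6 CPM), Rgs10 (1.69 CPM) and Rgs14 (60.1 CPM). In the KO 0 h group replicate 3 had the highest Rgs2, Rgs3, Rgs10, Rgs18 and Rgs19.

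Rgs10 and Rgs14 belong to the R12 subfamily, which acts on alpha subunits of the Gi class. Rgs10 is a small protein that is little more than an RGS domain (chr7:128373621-128418758, minus strand). Its reads were 15, 40 and 75 in WT 0 h and 35, 16 and 50 in KO 0 h. After culture they were 8, 13 and 16 in WT and 16, 24 and 32 in KO. At 0 h the genotypes overlapped, with a difference of -0.08 ± 0.42 that became 0.29 without WT 0 h replicate 1 and 0.33 without KO 0 h replicate 3 (log2, WT over KO). In CPM every WT 4 h library (1.29 to 2.03) lay below every KO 4 h library (2.11 to 4.35), and the difference of -0.88 ± 0.36 (log2) did not pass (edgeR adjusted p = 0.152). The WT culture change was -1.37 ± 0.46 and passed (2.59-fold lower, edgeR adjusted p = 0.0269), although the first WT 0 h library at 1.69 CPM fell inside the WT 4 h range. That call was lost without WT 0 h replicate 2 or 3 or WT 4 h replicate 1 or 3, with the adjusted p reaching 0.196. The KO change was -0.56 ± 0.43 (edgeR adjusted p = 0.382), and the difference between the changes, -0.81, had an interval of 2 SE from -2.08 to 0.46.

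Rgs14 carries Ras-binding domains and a GoLoco motif, which binds inactive alpha subunits, beside its RGS domain (chr13:55369732-55384687, plus strand). It showed the most marked fall in culture among the members tested with more than 100 reads in every library. The WT libraries went from 60.1, 72.7 and 74.6 CPM at 0 h to 22.7, 28.6 and 28.8 CPM at 4 h. The KO libraries went from 61.5, 63.5 and 63.5 CPM to 33.8, 35.0 and 30.7 CPM. In both genotypes all cultured libraries were far below all fresh ones. Rgs14 fell by 1.37 ± 0.10 on the log2 scale in WT (2.58-fold, edgeR adjusted p = 7.62e-10) and by 0.92 ± 0.10 in KO (1.89-fold, edgeR adjusted p = 5.51e-07), and both calls held under all 19 alternatives. At 4 h each WT library lay below each KO library, with a difference of -0.31 ± 0.11 that did not pass (edgeR adjusted p = 0.103), and at 0 h they overlapped (0.13 ± 0.09, edgeR adjusted p = 0.572). The difference between the culture changes was -0.45 ± 0.14 (edgeR adjusted p = 0.0709, interval of 2 SE from -0.73 to -0.16). Leaving out 1 library at a time gave -0.54 to -0.35, with adjusted p from 0.0164 to 0.181, and it passed in 1 of these 12 fits, that without WT 0 h replicate 1. It also passed with the replicate number as a block (-0.45 ± 0.12, edgeR adjusted p = 0.0272).

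Rgs19, also called GAIP, is a palmitoylated RGS protein of the RZ subfamily that acts on Gi class subunits (chr2:181688419-181693977, minus strand). Its replicates lay close together, with a spread between replicates of 3.31 to 5.62 CPM (SD) on means of 120 to 158 CPM. The WT libraries had 162, 155 and 157 CPM at 0 h and 117, 124 and 118 CPM at 4 h. The KO libraries had 153, 147 and 159 CPM at 0 h and 131, 121 and 128 CPM at 4 h. Fresh and cultured libraries were apart in both genotypes, and WT and KO overlapped at both times. Rgs19 fell by 0.40 ± 0.06 on the log2 scale in WT (1.32-fold, edgeR adjusted p = 1.38e-05) and by 0.27 ± 0.06 in KO (1.21-fold, edgeR adjusted p = 0.00145), and both calls held under all 19 alternatives. The genotype difference at 4 h was -0.08 ± 0.06 (edgeR adjusted p = 0.479, interval of 2 SE from -0.21 to 0.04), and the culture changes differed by -0.13 ± 0.08 (edgeR adjusted p = 0.479).

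Side by side, the fitted WT change lay further from 0 than the KO change for all 6 tested members. The changes in WT and KO were 1.54 and 1.13 for Rgs1, 0.64 and -0.11 for Rgs2, -0.998 and -0.28 for Rgs3, -1.37 and -0.56 for Rgs10, -1.37 and -0.92 for Rgs14 and -0.40 and -0.27 for Rgs19. Over all genes tested, the median absolute change was also larger in WT, at 0.23 against 0.19 in KO. The share of all genes with the larger change in WT was not computed. No single member's difference passed in the fit without a replicate block, and Rgs2 and Rgs14 passed with it. The order of fitted values is a description.

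**Figure D4:**
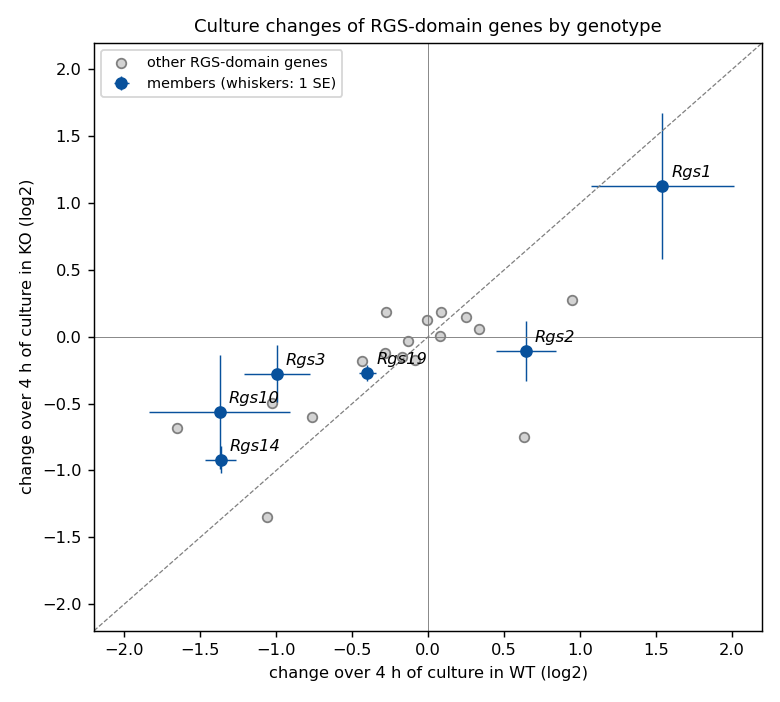
Culture change (4 h over 0 h, log2) in KO cells against that in WT cells for the 6 tested RGS genes, with whiskers of 1 SE, and for 17 other genes with an RGS domain in grey; the dashed line marks equal changes. The lower 4 members (Rgs3, Rgs10, Rgs14, Rgs19) lie above the dashed line, and Rgs2 lies below it at 0.64 in WT and -0.11 in KO.

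The genes whose levels over the 12 libraries were most like Rgs2 (Pearson r of log2 CPM, 11572 genes) were Taf6 with 0.93, Ddx23 with 0.92 and Rbm15b with 0.90. The 12 points share 4 groups and their libraries' depth, and the values are descriptions.

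Other genes of the pathway give the setting, beside the 10.9% of all genes tested that were called at 4 h. Of 16 genes with an RGS or RGS-like domain outside the members that were tested at 4 h, 1 was called: Arhgef1, which acts downstream of the G12 and G13 class, was 591 ± 25.2 CPM in WT and 704 ± 18.5 in KO (-0.25 ± 0.06, edgeR adjusted p = 0.00872). In culture, 17 of them were tested, with 7 called in WT and 3 in KO, beside 33.1% and 23.3% of all genes tested. These genes are named here after their values were seen: in WT, Rgs12 and Arhgef12 were higher and Rgs13, Snx25, Arhgef1, Adrbk2 and Grk6 lower, and in KO Arhgef1, Adrbk2 and Grk6 were lower. The members' culture calls in WT were 6 of 6 beside these 7 of 17, a difference that was not tested. Rgs13, the RGS gene known from germinal centre B cells, was also picked after seeing its value of -1.42 ± 0.44 at 4 h (WT over KO, edgeR adjusted p = 0.0504).

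The genes of G protein subunits, and of the proteins that assist them, were counted next. Over all genes tested, 10.9% were called at 4 h and 6.39% for the difference in culture change. Of the 11 tested alpha subunit genes, edgeR called 0 at 4 h, with 1 at an unadjusted p under 0.05 and 0 by DESeq2, and 0 for the difference in culture change, with 0 at an unadjusted p under 0.05 and 0 by DESeq2. Of the beta and gamma subunit genes, 8 were tested at 4 h and 2 called: Gnb1 was higher in WT (277 ± 19.1 against 231 ± 9.16 CPM, edgeR adjusted p = 0.0137) and Gng2 lower (133 ± 8.94 against 155 ± 5.92 CPM, edgeR adjusted p = 0.0375). Of 10 tested accessory and arrestin genes 2 were called, both higher in WT: Nucb2 (52.8 ± 3.22 against 38.5 ± 0.42 CPM, edgeR adjusted p = 0.00209) and Ric8b, a chaperone of stimulatory alpha subunits (49.8 ± 1.38 against 40.7 ± 2.84 CPM, edgeR adjusted p = 0.0421). The Ric8b call was lost in 6 of 6 fits that left out a library, the Gng2 call in 5 of 6, the Gnb1 call without KO 4 h replicate 1 (edgeR adjusted p = 0.0853) and the Arhgef1 call without KO 4 h replicate 2 (edgeR adjusted p = 0.0534).

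Of 12 tested genes on the list of B cell positioning receptors, upstream of the G proteins, 5 were called at 4 h, beside 10.9% of all genes. P2ry10, a lysophosphatidylserine receptor like GPR174, was 525 ± 37.5 CPM in WT and 182 ± 9.48 in KO (1.53 ± 0.07, edgeR adjusted p = 7.4e-10). Its gene is the neighbour of the targeted Gpr174 on the X chromosome. The paper also reports it higher in WT than in cultured B cells without the stimulatory alpha subunit. Ccr7, the receptor that draws cells to the T zone, was 497 ± 30.4 against 220 ± 14.01 CPM (1.18 ± 0.07, edgeR adjusted p = 1.04e-08). Cxcr5 (0.47 ± 0.07) and Ccr6 (0.53 ± 0.08) were higher in WT too, and the cannabinoid receptor gene Cnr2 was lower (-0.26 ± 0.06), a call lost without WT 4 h replicate 3 or KO 4 h replicate 1 (edgeR adjusted p = 0.0562 and 0.0859). S1pr4 did not pass at 4 h (-0.24 ± 0.07, edgeR adjusted p = 0.0505). The median difference at 4 h (log2, WT over KO) was 0.02 for the other RGS domain genes, 0.07 for the alpha subunits, 0.13 for the beta and gamma subunits, 0.07 for the accessory genes and 0.21 for the receptors, beside -0.19 for the RGS members and 0.00 for all genes.

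**Figure D5:**
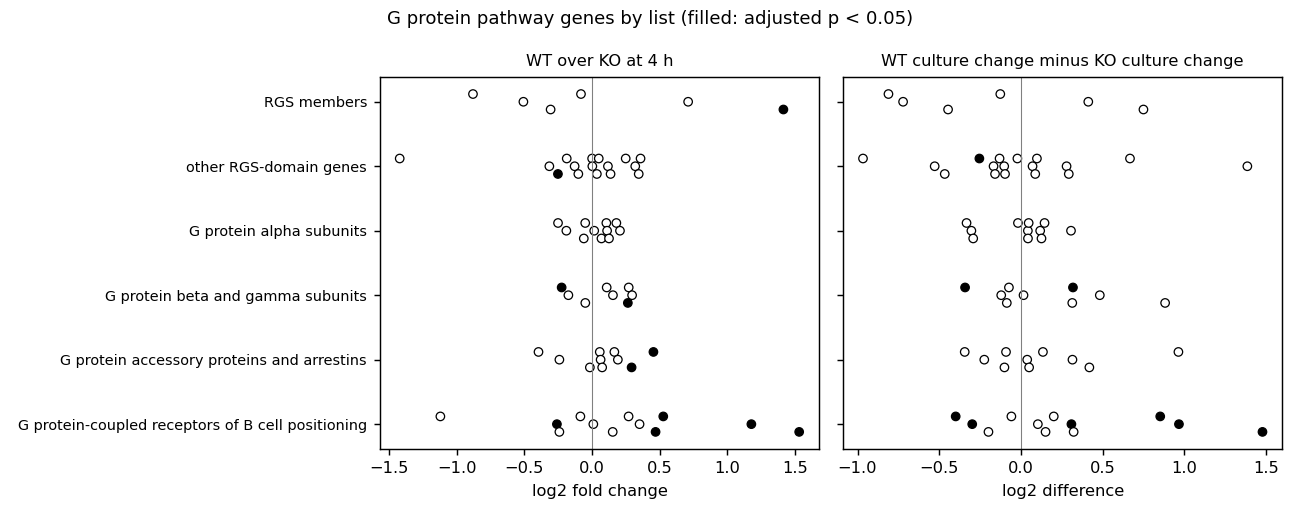
Each point is a tested gene of the RGS members or of a G protein pathway list, at its WT over KO log2 fold change at 4 h (left) or the difference of its culture change between genotypes (right), filled where edgeR's adjusted p is under 0.05. In the left panel Rgs2 is the filled point among the members at 1.41 and the receptors hold 5 filled points, while in the right panel no member is filled.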

How the data were processed

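RNA of sorted mouse follicular B cells was sequenced as single-end reads by the authors, who aligned to mm10 with STAR and counted reads per gene with HTSeq; their versions, the annotation and the strand setting are not given in the sources used here. The 2 deposited tables (0 h and 4 h) hold raw counts per gene and list genes whose counts sum to at least 10 over the 6 libraries of the table. All columns were mapped by name to 1 sample.

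Counts were tested with edgeR 4.0.16 in R 4.3.3 (TMM scaling, filterByExpr with a minimum count of 10, quasi-likelihood test, Benjamini-Hochberg adjustment over all genes tested, threshold 0.05). WT was set against KO within each table of 6 libraries. Culture changes and their difference came from 1 fit of 4 groups over the 12837 genes in both tables. The authors' methods used DESeq2, here an alternative (version 1.42.0). Other alternatives were scaling, filtering, leaving out Rn45s (6.65 to 11.3% of counts), the samples in the fit, a replicate block and leaving out each library. SE is the log2 fold change divided by the root of its F value. Fits were tested on simulated data.

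Levels are CPM on full totals and TMM factors of the 12 libraries. Lengths are those of the longest principal transcript (GENCODE M21, GRCm38). No annotated gene shared exonic bases with a member. Library pairs of a group differed beyond sampling noise (chi-square per degree of freedom 1.94 to 9.3). The design text states 3 mice per genotype; p-values measure the spread between these libraries. All 7 members were named; of the pathway lists, genes called at 4 h or in the difference of culture changes, at most 6 a list by p at 4 h. The 3 genes most like a called member were described. The members and the pathway and marker lists were chosen with earlier results of these data known.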

Additional observations from a re-analysis of the deposited data

Results flagged for a closer look

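The test of the difference in culture change between genotypes (log2, WT minus KO, edgeR, adjusted p under 0.05) picked out 9 named genes of the pathway lists and no RGS member. This was the fit without a replicate block, and Rgs2 and Rgs14 passed with the block. The difference was 1.48 ± 0.09 for P2ry10, 0.97 ± 0.10 for Ccr7, 0.85 ± 0.12 for Ccr6, 0.32 ± 0.08 for Gnb1 and 0.31 ± 0.09 for Cxcr5. It was -0.40 ± 0.10 for S1pr4, -0.34 ± 0.09 for Gng2, -0.30 ± 0.09 for Cnr2 and -0.25 ± 0.07 for Arhgef1. P2ry10, Ccr7 and Ccr6 passed under all 18 alternatives. The calls of the other genes were lost under at least 2 of the 18, with Cnr2 kept in 4, Cxcr5 in 9 and Arhgef1 in 10.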

How the results depend on the processing

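Of 477 values of the RGS members under the alternatives, 460 kept their direction and their side of the threshold, 10 lost a call, 4 gained one and 3 changed sign. The changes of sign were Rgs10 at 0 h (0.29 without WT 0 h replicate 1 and 0.33 without KO 0 h replicate 3, from -0.08, with -0.57 to 0.33 over the left-out libraries) and Rgs2 culture in KO (0.22 without KO 0 h replicate 3, from -0.11, with -0.32 to 0.22); none of these passed the test. The design text states 3 mice per genotype, so mice may be shared between the times. Whether libraries of the same number share a mouse is not stated, and the samples were analysed as unpaired. Deviations of 0 h and 4 h libraries of the same number were correlated at 0.126, 0.0717 and 0.117 in WT. In KO these correlations were -0.0402, 0.145 and 0.152. Each WT 0 h library was most like the 4 h library of its own number. So were KO 0 h replicates 2 and 3, while KO 0 h replicate 1 was not. Such correlations cannot decide whether the libraries are paired. With the number as a replicate block, 2 members passed in the difference of culture changes (Rgs2 at 0.75, edgeR adjusted p = 0.00907, and Rgs14 at -0.45, edgeR adjusted p = 0.0272), as did 2 without WT 0 h replicate 1, giving 0 to 2 over the left-out libraries; the block changed no other call of a member. Among the pathway genes the block lost Ric8b (0.0709) and gained S1pr4 (0.043) at 4 h, both adjusted p of edgeR. Over left-out libraries the called genes of all tested numbered 26 to 161 at 0 h (112 with all), the lowest without KO 0 h replicate 1, and 776 to 1361 at 4 h (1212 with all); fewer samples enter each of these fits. DESeq2 called 157 genes at 0 h. Scaling by library totals alone shifted the median culture change of all genes to 0.11 in WT and 0.09 in KO and turned the split of WT calls from 1750 higher and 2080 lower to 3001 and 1500. The 8 culture calls of the members held in it; the levels became 61.5 CPM for Rgs14 in KO 0 h, 150 CPM for Rgs19 in WT 0 h and 132.1 CPM for Rgs19 in KO 4 h. In CPM not divided by length, the ranks of Rgs10 and Rgs3 became 5 and 4 in WT 0 h, KO 0 h and KO 4 h, those of Rgs2 and Rgs14 became 2 and 3 in KO 4 h, and in WT 4 h Rgs3, Rgs1 and Rgs10 ranked 4, 5 and 6. Depth limits Rgs1, Rgs10 and Rgs18, which had as few as 3, 8 and 0 reads in a library.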
